A study of Mus musculus with 18 samples.

Results

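The regions described here are H3K4me3 peaks that were found in both control and Men1 knockout mouse islets, but of which the knockout list kept no more than 50% of the width. They were chosen from one-to-one pairs, in which a control peak and a knockout peak overlapped each other by at least 1 bp and overlapped no other peak of the opposite list. Of 17716 such pairs on chromosomes 1 to 19, 225 met the width limit, and they are called halved pairs below. That is 1.27% of the pairs, a share set by the rule itself. With the genotypes exchanged, 37 pairs (0.209%) had a control peak of at most 50% of the knockout width.

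The series holds 18 ChIP-seq samples of mouse pancreatic islets or islet tumours at 2, 6 and 12 months of age, and the peak lists of 2 of them are used here. The control list comes from islets of RIP-Cre mice at 2 months, a line in which the rat insulin promoter drives Cre recombinase, with no Men1 deletion named in the labels. The other comes from islets of mice of the same age labelled as an islet-specific Men1 knockout; which Cre line made the deletion is not stated in the labels. Both groups had a background mixed from the strains 129s6, FVB/N and also C57BL/6. There was 1 library per genotype, and whether animals were pooled is not given in the sources used here. Islets hold several cell types, and the identity of the tissue was not checked against marker genes here. In such bulk tissue, fewer cells carrying the mark and less of the mark per cell cannot be told apart. With 1 library each there is no replicate check and no test between genotypes, and read depth is unknown.

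H3K4me3, trimethylation of lysine 4 of histone H3, marks the start sites of active and poised genes. It usually sits on the nucleosomes around a promoter, and it extends into broad domains at many genes that define a cell type. Menin, the product of Men1, is a subunit of the histone methyltransferase complexes built around MLL1 and MLL2 that place this mark. Loss of MEN1 in humans causes tumours of endocrine tissues, including the pancreatic islets.

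A peak's width was the measure that chose these pairs, so widths, border shifts and scores of the pairs themselves are given as a description. In the control list the halved pairs ranged from 733 to 13997 bp, with a median of 1512 bp (95% interval of the median 1436 to 1602). Their knockout partners ranged from 314 to 6868 bp, with a median of 640 bp (interval 606 to 669). The median halved pair kept 43.4% of its control width, and the lowest kept 18.2%. Over all 17716 pairs the median width was 1922 bp in the control list and 1765 bp in the knockout list, and the median pair kept 92.5%, a log2 ratio of -0.11. Set against that common shift rather than against 0, 143 pairs were narrower by a log2 ratio of 1 or more. Pairs that kept over 50% and up to 75% of their width had a median control width of 1356.5 bp (interval 1317 to 1397). A narrow control peak was thus not particular to the halved pairs.

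The halved pairs covered 434.7 kb in control islets and 179.3 kb in knockout islets, and so lost 255.4 kb. This was 8.89% of the net length lost over all pairs and 6.93% of the length lost over the pairs that narrowed. The rule chose these pairs for their loss, so a share above 1.27% is fixed by it.

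**Figure D1:**
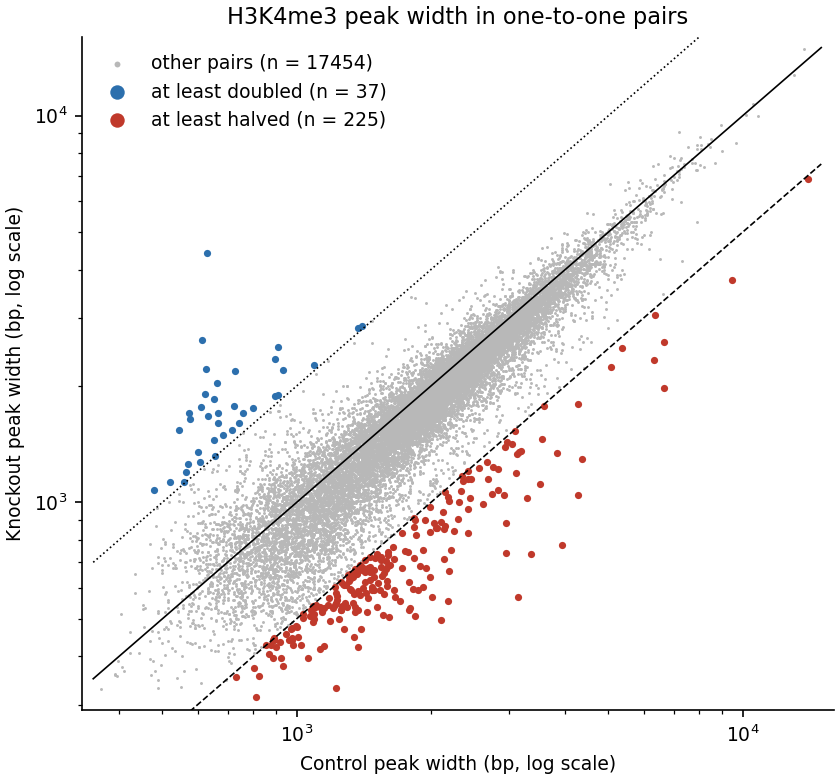
Control width (x axis, bp, log scale) against knockout width (y axis, bp, log scale) of each one-to-one pair; the solid line marks equal widths, the dashed line 50% of control width and the dotted line double width. The 225 halved pairs spread from 733 to 13997 bp of control width, while the 37 pairs at least doubled in the knockout list had control widths of 479 to 1400 bp.

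The halved pairs fell into many narrow peaks and a small number of broad ones. A control peak under 3000 bp was found in 200 of them and one of 3000 bp or more in 25. The broad ones held 73.2 kb of the loss, or 28.7%. Among pairs with a control width of 1000 to under 1500 bp, 88 of 3531 were halved (2.49%, exact 95% interval 2.00 to 3.06), which was the highest share of any width class. The share was 1.29% from 1500 to under 2000 bp, 0.726% from 2000 to under 3000 bp and 0.755% from 3000 to under 4000 bp. At 4000 bp or more it was 1.44%, with 11 of 764 pairs (interval 0.721 to 2.56). The low share under 750 bp, 1 of 720 pairs, has a floor. The narrowest knockout peak was 314 bp, so the 262 pairs with a control width under 628 bp could not be halved.

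The share of pairs halved was highest at control scores from 100 to under 1000, below the control list median of 1988. The score is the value that the authors' peak caller gave each peak, and it is comparable only within a list. The median control score of the halved pairs was 358 (interval 320 to 418), against 2862 over all pairs. It was 484 (interval 443 to 530) in pairs that kept over 50% and up to 75% of their width. A low control score was thus not particular to the halved pairs. The share halved was 0.968% at control scores under 100 (7 of 723), 3.69% from 100 to under 300, 3.36% from 300 to under 1000 and 0.153% at 3100 or more. The class under 100 lies close to a floor, because no listed knockout peak scored under 60.02. The part of this floor in its low share was not tested. Among control peaks of 1500 to under 3000 bp, 68 of 834 with a score under 1000 were halved (8.15%, interval 6.39 to 10.2). In the same width range this held for 18 of 2582 with a score from 1000 to under 3100 (0.697%) and for 3 of 5938 with a score of 3100 or more (0.0505%, interval 0.0104 to 0.148). At 3000 bp or more the shares were 3 of 14, 12 of 126 (9.52%, interval 5.02 to 16) and 10 of 2479 (0.403%, interval 0.194 to 0.741). Under 1500 bp they were 111 of 4859 (2.28%), 0 of 811 and 0 of 73. Within each score class the share was thus highest at 3000 bp or more, unlike the order of the width classes alone. At scores under 1000 this rests on 14 pairs (interval 4.66 to 50.8). Many peaks are tied at 3100, so scores do not order the strongest ones.

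**Figure D2:**
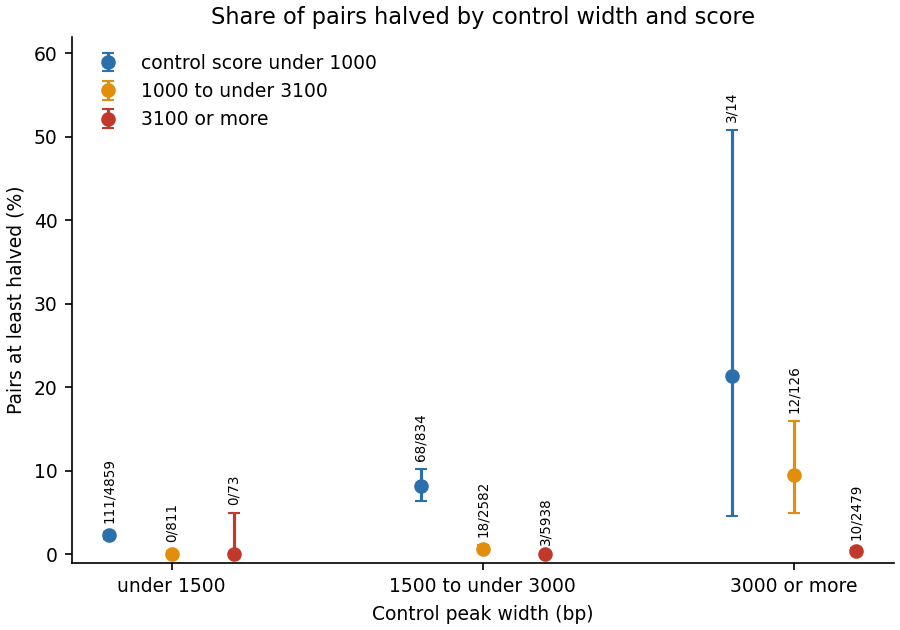
Share of one-to-one pairs that were halved (y axis, %) by control width class (x axis, bp) and control score (colours), with exact 95% intervals and the counts behind each point. Within each width class the share is highest at control scores under 1000, from 2.28% under 1500 bp to 21.4% at 3000 bp or more, where only 14 pairs stand behind it.

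On the knockout side most of these peaks lay close to the lowest score of the list, which was 60.02. The median knockout score was 86.4 (interval 79.6 to 91.7), and 139 of 225 (61.8%) scored under 100, against 6.01% of all pairs. Among pairs that kept over 50% and up to 75% of their width, 23.6% of the knockout peaks did. In the 37 pairs at least doubled in the knockout list, 24 of the control peaks (64.9%) scored under 100. A low score of the narrower partner was thus not particular to the halved pairs. Under 3000 bp of control width, 136 of 200 knockout peaks scored under 100. At 3000 bp or more, 3 of 25 did, and the median knockout score there was 566. Scores of 3100 or more made up 33.4% of the knockout list and 41.3% of the control list. Without the depths this cannot be read as a difference in the mark, and its part in the halved pairs was not tested. The deposited knockout score was the larger number in 2 halved pairs and in 17.0% of all pairs, on scales that may differ between the lists. The 2 were chr6:73317580-73318765, with a score of 90.39 in control and 101 in knockout islets, and chr14:89498718-89499450, with 64.22 and 67.26.

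Loss was measured separately at the left and right borders, as the distance by which the knockout border lay inside the control border. It was called one-sided where at least 80% of the inward shift was at 1 border, and two-sided otherwise. Loss was one-sided in 90 of 225 halved pairs (interval of the share 33.5 to 46.7%) and two-sided in 135. Over all pairs, most of which moved by far fewer base pairs, 55.4% met the same definition. Among pairs that kept over 50% and up to 75% of their width, 37.6% did (715 of 1904), a value inside the interval of the halved pairs. In both sets one-sided loss was less common than over all pairs, so this was not particular to the halved pairs. In the halved pairs, one-sided loss was at the left border in 50 and at the right border in 40. The interval of the left share, 44.7 to 66.0%, includes equal shares of both. The median inward shift was 399 bp for left borders and 354 bp for right borders, against 66 and 69 bp over all pairs. The knockout peak lay wholly inside the control peak in 203 of 225 pairs (90.2%), against 49.0% of all pairs. Both borders lay inward in 90.2% of halved pairs and in 89.5% of pairs that kept over 50% and up to 75% of their width. Nesting was therefore not particular to the halved pairs. Exactly 1 border had moved by 100 bp or less in 41 halved pairs (18.2%), against 49.0% of all pairs.

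One-sided loss is defined by the share of the inward shift, not by base pairs. Among the halved pairs, one-sided loss so defined took a larger share of the broad peaks than of the narrow ones. It was found in 20 of 25 halved pairs with a control width of 3000 bp or more (interval 59.3 to 93.2%) and in 70 of 200 narrower ones (35.0%, interval 28.4 to 42.0). At 4000 bp or more it was 10 of 11. Over all pairs, whatever their change in width, there was no such difference by width: 56.7% of the 2619 pairs with a control width of 3000 bp or more met the definition, against 55.4% of all. Pairs that kept over 50% and up to 75% of their width, which the rule did not choose, showed both high and low shares. There, one-sided loss rose from 94 of 348 (interval 22.4 to 32.0%) at 1500 to under 2000 bp to 73 of 110 (66.4%) at 3000 to under 4000 bp and 36 of 47 (76.6%) at 4000 bp or more. The narrowest of these moderately narrowed pairs, under 750 bp, also had a high share of one-sided loss, 42 of 66 (63.6%).

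**Figure D3:**
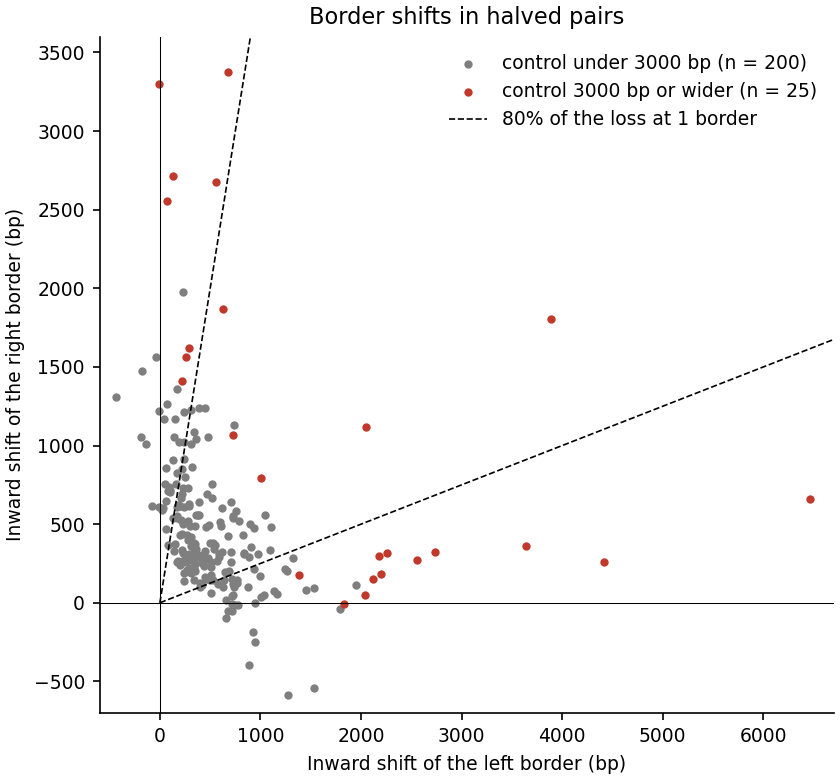
Inward shift of the left border (x axis, bp) against that of the right border (y axis, bp) in the 225 halved pairs; negative values are borders that lay outside the control peak. Points between a dashed line and its nearer axis, or on or past that axis, are one-sided. These are 20 of the 25 broad pairs (red) and 70 of the 200 narrower pairs (grey).

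The broadest halved region, chr2:115880751-115894747, was 13997 bp wide in the control list and 6868 bp wide in the knockout list. The left border lay 6467 bp further in and the right border 662 bp. Both peaks had the tied score of 3100, and the left portion of the control domain was not called in the knockout list. A control peak of 630 bp that lay 509 bp to the left had no knockout partner. On the right, 1814 bp away, stood another halved pair (chr2:115896562-115898004), which went from 1443 to 677 bp.

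A pair of broad peaks lost width on the same stretch of chromosome 13. At chr13:72095477-72102134 the control peak was 6658 bp wide and the knockout peak 1981 bp, with scores of 2304 and 797. Here the left border moved in by 4419 bp and the right border by 258 bp. At chr13:72763979-72770625 the widths were 6647 and 2598 bp, with scores of 3099 and 1469, and the loss was at the right border (3375 bp) rather than the left (674 bp). The next control peak, 190 bp to the left and thus on the side of the lesser loss, went from 2722 to 1874 bp. A narrow halved pair, chr13:72166559-72167383, with 825 and 355 bp, lay between them. These were 3 of the 6 one-to-one pairs in the window from 72000001 to 73000000. It is the sparsest of the 4 windows of 1 Mb that held 3 halved pairs. The others held 3 of 19, 3 of 17 and 3 of 37 pairs, and 1.27% of all pairs were halved.

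On chromosome 10, neighbouring broad peaks lost the sides that faced each other. In control islets chr10:50613532-50618881 (5350 bp, score 3100) and chr10:50619515-50623874 (4360 bp, score 2265) were separated by 633 bp. In knockout islets 2501 bp of the first and 1295 bp of the second remained, with scores of 1276 and 231, and the gap between them was 6087 bp. The right border of the first had moved in by 2714 bp and the left border of the second by 2740 bp. Their outer borders moved by 135 and 325 bp.

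In most other broad regions with one-sided loss the lesser border also moved, by more than the 66 to 69 bp of the median pair. An exception was chr12:75384524-75390874, which went from 6351 to 3059 bp. Its left border lay 10 bp outside the control border and its right border 3302 bp inside it. The right border moved by 360 bp and the left by 3637 bp at chr6:112435152-112441483, with 6332 and 2335 bp and scores of 3100 and 1301. A control peak of 662 bp, 217 bp to its left, had no knockout partner. At chr6:96062634-96067709 the widths were 5076 and 2246 bp, the left border lost 2561 bp and the right border 269 bp, and both peaks scored 3100. At chr7:6645466-6649741 they were 4276 and 1802 bp, and the left border lost 2174 bp, the right border 300 bp. The regions chr1:162174683-162177974 and chr1:162236201-162239706 lie on the same stretch of chromosome 1. They went from 3292 to 1024 bp and from 3506 to 1117 bp, each mainly at the left border.

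Two-sided loss was found in 5 of the 25 broad pairs. The largest such region, chr18:11047954-11057401, went from 9448 to 3752 bp, the left border lost 3890 bp and the right border 1806 bp, and both peaks scored 3100. A control peak of 1418 bp, 1025 bp to its right, had no knockout partner, and the nearest other knockout peak was 182006 bp away. At chr13:63373209-63377147 the widths were 3939 and 775 bp, losing 2047 bp at the left border and 1117 bp at the right. That control peak scored 1947, the knockout peak scored 70.1, and the control peaks on either side, 682 and 1638 bp away, had no knockout partner. More even losses were found at chr2:174108919-174112073, where a 3155 bp control peak lost 1006 bp at its left border and 796 bp at its right. At chr7:148523639-148526765 they were 731 and 1064 bp, and the widths 3127 and 1332 bp.

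**Figure D4:**
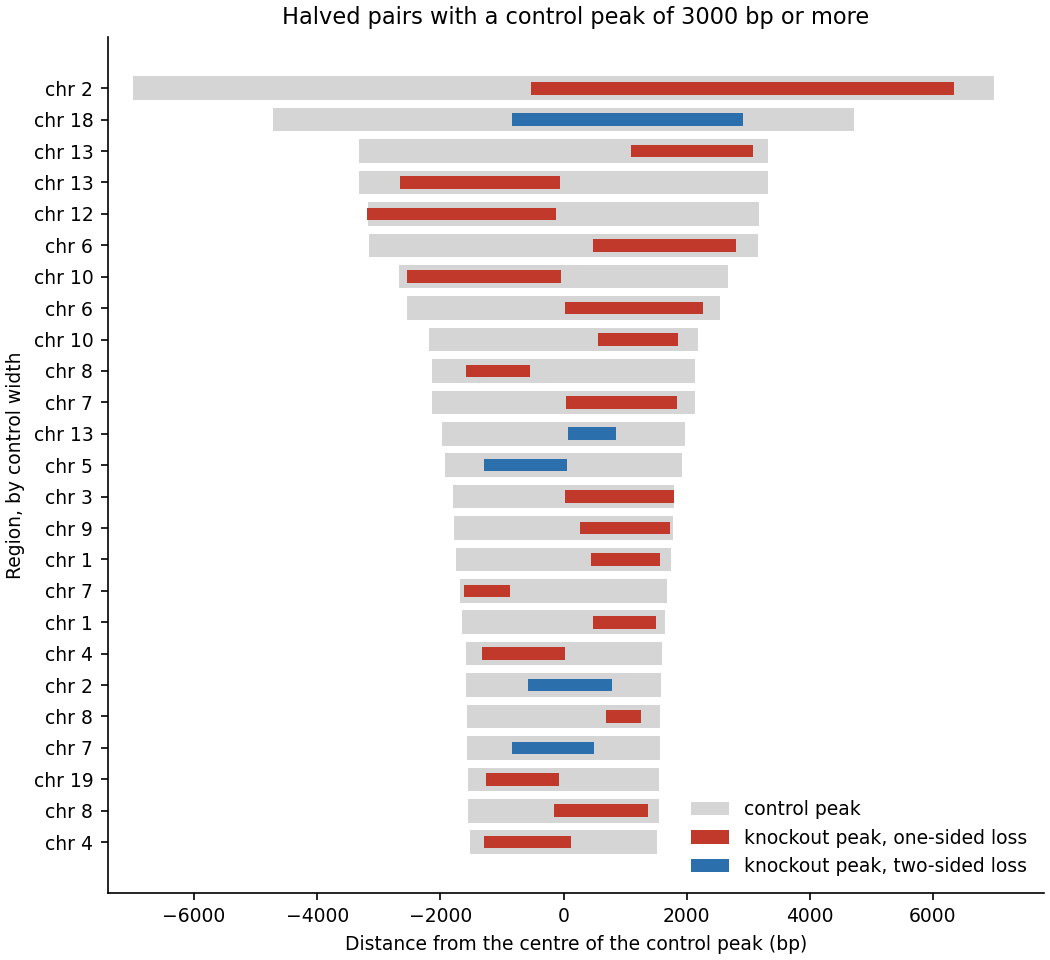
The 25 halved pairs with a control peak of 3000 bp or more, one per row from the widest down, drawn to scale around the centre of the control peak (x axis, bp). Grey bars are control peaks; coloured bars are knockout peaks, red for the 20 with one-sided and blue for the 5 with two-sided loss.

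Knockout scores ranged widely among the regions that kept the smallest share of their width. The lowest share of control width, 18.2%, was at chr8:25977636-25980774, where 3139 bp in the control list (score 931) stood against 571 bp in the knockout list (score 81.0); this region was singled out after its values were seen. Among halved pairs whose control peak reached the median score of its list (1988), of which there were 22, chr7:127317037-127320397 kept the least, 737 of 3361 bp. Its left border moved by 71 bp and its right by 2553 bp, and its score was 3100 in control and 81.1 in knockout islets. The chromosome 10 peak of 4360 bp, with a knockout score of 231, and the chromosome 13 peak of 6658 bp, with 797, came next; they kept 29.7% and 29.8%. At chr7:17578803-17580994, 665 of 2192 bp remained, with scores of 2585 and 72.0. At chr5:124326902-124330737, 1343 of 3836 bp remained, with scores of 2620 and 582. At chr19:38170931-38174030, 1191 of 3100 bp remained, with scores of 2482 and 218.

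The limit of 50% cut through a continuous range. Just inside it, among control peaks at or above the list median score, chr8:87954321-87957408 kept 49.6%, chr3:79332553-79336143 kept 49.3% and the chromosome 2 domain described first kept 49.1%. Just outside it, chr9:117158570-117162979 kept 50.3% (4410 and 2220 bp), chr7:13419191-13423055 kept 51.4% (3865 and 1987 bp) and chr1:191991296-191997931 kept 52.1% (6636 and 3459 bp).

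In 5 of the 225 pairs the knockout peak was displaced rather than nested, with under 50% of its width inside the control peak; over all pairs this held for 0.406%. These pairs were named after their values were seen. The knockout peak overlapped the control peak by 2 bp at chr3:122469794-122470680, by 36 bp at chr1:92100039-92101608 and by 52 bp at chr17:17109231-17110551. It overlapped by 244 bp at chr6:73317580-73318765 and by 292 bp at chr2:179194005-179195603. Their knockout scores were between 63.6 and 106, so in these the pairing rests on weak peaks.

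Another control peak lay within 5 kb of 69 of 225 (30.7%, interval 24.7 to 37.1), against 19.1% of all pairs. The median distance to the nearest other control peak was 13140 bp (interval 9779 to 16591), against 19906 bp. In the knockout list, another peak lay within 5 kb of 58 of the 225 (25.8%) and of 17.8% of all pairs. The intervals of the halved pairs lay above the values of all pairs in both lists. In the 86 halved pairs with a knockout score of 100 or more, this was no longer so in either list: the control share was 23.3% (interval 14.8 to 33.6) and the knockout share 19.8% (interval 12.0 to 29.8).

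Some of the control peaks that flanked a halved pair within 5 kb were themselves missing or halved in the knockout list. Of 78 such flanking peaks, 19 were overlapped by no knockout peak (24.4%, interval 15.3 to 35.4), and 4 were halved (5.13%, interval 1.41 to 12.6). The 4 lay on chromosomes 2 and 10 and flanked each other. Each such adjacency was counted from both sides, so the interval for the 4 is too narrow. Among the 3447 control peaks flanking any pair, 15.3% had no knockout peak and 1.45% were halved, values at or just inside those intervals. The flanking peaks of halved pairs had a median score of 419, against 1210 for those of any pair, and the part of this lower score in the difference was not tested. Of the 12 that flanked broad halved pairs, 6 had no knockout peak and 3 were halved. The 3 include the chromosome 10 peaks, which flanked each other.

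Where exactly 1 side had a control peak within 5 kb, the larger loss faced that peak in 29 of 59 halved pairs (49.2%), which is near 48.7% over all pairs. For one-sided loss alone it was 19 of 29 (65.5%, interval 45.7 to 82.1), against 51.4% over all pairs. That interval includes the value of all pairs, so a preference for the side of the neighbour was not detectable in these numbers. A knockout-only peak stood next to the knockout peak within 5 kb in 8 of 225 halved pairs (3.56%, interval 1.55 to 6.89), against 1.96% of all pairs.

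The nearest other one-to-one pair was not used to choose a region. It lay within 50 kb of 170 of the 225 halved pairs. Its median log2 width ratio was -0.18 (interval -0.236 to -0.139), against -0.11 (interval -0.117 to -0.109) for the nearest pair of all pairs. It was narrower than the median of all pairs in 106 of 170 (62.4%, interval 54.6 to 69.7), where over all pairs 50.1% were. Of these neighbours, 9 were halved themselves (5.29%, interval 2.45 to 9.81), against 1.44% over all pairs. Halved pairs that were nearest to each other are counted from both sides among the 9, so these counts are not independent. Without those 9 the median was -0.17 (interval -0.208 to -0.123). Neighbours with a control score of 3100 or more had a median of -0.13 next to a halved pair (75 pairs, interval -0.175 to -0.102) and of -0.08 over all pairs (5812 pairs, interval -0.088 to -0.081). Neighbours with a control score under 1000 had medians of -0.37 (65 pairs, interval -0.493 to -0.189) and -0.18. Pairs that kept over 50% and up to 75% of their width had neighbours with a median of -0.135 (1395 pairs, interval -0.146 to -0.126). Of those neighbours, 2.37% were halved. Both values lay between those of the halved pairs and of all pairs, so a narrower neighbour was not particular to the halved pairs. Neighbouring pairs share their libraries and can share a domain, so these intervals are too narrow, and no test against other libraries was possible.

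**Figure D5:**
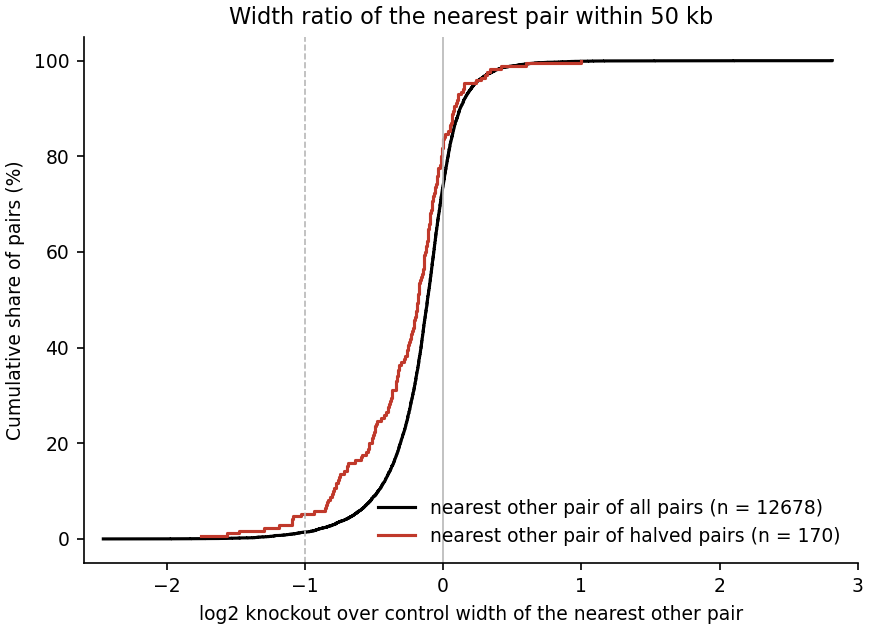
Cumulative share (y axis, %) of the log2 knockout over control width of the nearest other pair within 50 kb (x axis), for all pairs (black) and halved pairs (red); the dashed grey line marks a knockout width of 50%. The red curve lies to the left of the black one over most of its range, with medians of -0.18 and -0.11.

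Halved pairs occurred in groups in 16 of 225 cases, as 8 groups of 2 with no more than 50 kb between the control peaks. On chromosome 2 these were the broad domain and its neighbour described above, and chr2:59275933-59276854 (922 and 397 bp) with chr2:59322388-59324044 (1657 and 594 bp). On chromosome 9, chr9:62982828-62983928 went from 1101 to 535 bp and chr9:62991656-62995211 from 3556 to 1462 bp, each at the left border. On chromosome 7, chr7:17535267-17536921 went from 1655 to 712 bp at the left border, 41881 bp from the pair at 17578803. In windows of 1 Mb, 171 windows held 1 halved pair, 21 held 2 and 4 held 3. Only 1.27% of all pairs were halved, and no background was computed for the groups or windows. These counts therefore do not show whether halved pairs lay closer together or further apart than other pairs. By chromosome, the share of pairs halved ranged from 0.735% on chromosome 18 (4 of 544, interval 0.201 to 1.87) to 2.21% on chromosome 13 (17 of 768, interval 1.29 to 3.52). The interval of chromosome 13 alone excluded the overall share of 1.27%, by a small margin and among 19 chromosomes.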

How the data were processed

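H3K4me3 ChIP-seq peak lists of 2 samples were used; the other 16 samples were not analysed here. Bowtie, MACS 1.4.2 and mm9 are named in the submitters' processing notes. Input use and filters: not given in the sources used here. The deposited lists hold, for each peak, its position and a score, without header, read counts or signal. The score is the authors' value, on an unstated scale. Lists were matched to samples by genotype, age and mark; 0 columns were left unused. Their names also hold the word "2nd", so whether they come from a repeat experiment is not known. Positions are mm9, counted from 1. No annotation of mm9 was used, so regions are not assigned to genes.

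Pairing, border shifts and distances were computed in Python 3.11.15 with numpy 2.4.6, pandas 2.3.3 and scipy 1.17.1, and tested on simulated data. Medians carry order-statistic and shares exact (Clopper-Pearson) 95% intervals over peaks, which do not cover variation between libraries. Named regions followed a written rule: the greatest narrowing at control scores at or above the list median, the widest control peaks, the largest one-sided and most even two-sided losses, pairs at the width limit, knockout scores above control, and groups within 50 kb. The chromosome 1 regions that narrowed mainly at the left border, the chromosome 13 window and its narrow pair were named outside this rule. The regions and lists were chosen with earlier results of these data known.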

Additional observations from a re-analysis of the deposited data

How the results depend on the processing

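Of 48 recomputed values, 19 stayed within 1.5 times the reported count or inside the reported 95% interval, and 29 did not. Of these values only the 7 neighbour ratios could change sign, and all 7 stayed below 0. The count of 225 halved pairs became 68 with a width limit of 40% and 631 with 60%. It became 85 with both scores at least 100, 22 with control peaks at or above their list median score, and, in alternatives added after seeing the data, 86 with a knockout score of at least 100 and 143 relative to the median ratio. The one-sided share, 90 of 225, was 58.7% with a cutoff of 70%, 21.8% with 90%, and 18.2% where exactly 1 border moved by 100 bp or less. It was 47.1% with both scores at least 100, 47.7% with a knockout score of at least 100, 72.7% for control peaks at or above the median score and 49.4% after merging peaks within 1 kb. The median control width of 1512 bp was 1906 and 1371 bp at limits of 40% and 60%, 2296 bp with both scores and 2276 bp with the knockout score at least 100, 3714 bp at or above the median score and 1788 bp after merging. The median control score was 538 at 40% and 875 with both scores at least 100. The median knockout score was 105 at 60%, 190 with both scores at least 100, and 93.5 after merging. The share with another control peak within 5 kb was 23.5% with both scores and 23.3% with the knockout score at least 100; it was 18.2% within 2 kb and 44.0% within 10 kb, against 9.21% and 32.5% of all pairs. The median neighbour ratio was -0.411 at or above the median score, over 16 pairs (interval -1.083 to -0.113). Of those 16 neighbours, 4 were halved themselves. Without them the median was -0.176 over 12 pairs, with an interval that includes 0 (-0.539 to 0.034). Width limits, score limits and distances change which pairs count by construction; for the remaining changes, the cause was not tested. No paired analysis was possible because there is a single library of each genotype, so none could be left out either. Depth is unknown, so lost borders beyond detection cannot be told from absent ones.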
